A study of Mus musculus with 21 samples.

Results

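Immediate early genes are transcribed within minutes of a stimulus, without the need for new protein synthesis. The 38 described here were taken by symbol from the deposited table of read counts, which holds 21878 gene lines. All 38 symbols were present, and 37 had enough counts to be tested. Egr4, which encodes a zinc finger factor of the EGR family, was left out of the tests with 8 counts in all, found in 2 of the 21 libraries.

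The libraries were made from mouse spiral ganglion neurons at postnatal day 7, the cells that carry sound signals from the hair cells to the brainstem. Each library pooled about 50 neurons drawn up with a micropipette and was made from polyadenylated RNA by Smart-seq2, a full-length cDNA method that does not mark the strand. All animals had received an adeno-associated virus. In the control group (genotype tag WT) the virus carried EGFP, a fluorescent protein. In the group labelled DN-mHCN2 it carried a site-mutated, dominant-negative HCN2, a cation channel opened by hyperpolarization, and in the group labelled truncated SK3 a shortened SK3, a potassium channel opened by calcium. Neurons of each group came from the apex of the cochlea, which codes low sound frequencies, or from the base, which codes high ones. This gave 4 control apex, 4 control base, 4 DN-mHCN2 apex, 3 DN-mHCN2 base, 3 truncated SK3 apex and 3 truncated SK3 base libraries. The libraries are labelled as biological replicates, with no animals, strain, sex, viral promoter or share of neurons carrying the virus named, so p-values measure the spread between libraries.

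Library totals lay between 10411634 and 15138780 counts, and the members took between 0.2945% and 0.909% of them. Levels below are CPM, the counts of a gene for every 1000000 counts of its library after TMM scaling. Hcn2 was measured at 9.84 to 89.8 CPM in control and 14.6 to 121.7 CPM in DN-mHCN2 libraries, a log2 fold change over both regions of 0.00 (SE 0.59, adjusted p = 1.00 in edgeR), and Kcnn3, the gene of SK3, had at most 23 counts in any library. The counts of the channel genes therefore did not check the group labels, and the groups are named here as they are labelled. Neuronal markers summed to between 13685 and 30188 CPM per library, and markers of Schwann cells and satellite glia to between 10674 and 47078 CPM, so the libraries held RNA of both. Markers of macrophages reached 1398 and 1628 CPM in DN-mHCN2 base 2 and DN-mHCN2 base 3 and at most 513 CPM elsewhere. Markers of supporting cells were highest in DN-mHCN2 apex 1, at 8544 CPM, and those of fibroblasts in DN-mHCN2 base 1, at 4850 CPM. In such pools, fewer cells of a type and less RNA per cell cannot be told apart.

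In neurons, calcium entry and growth factor signalling reach these genes through the CREB factors, which bind cyclic AMP response elements, and through serum response factor, which binds CArG boxes. The products then act on later genes: the FOS and JUN proteins pair into the AP-1 factor, the EGR and KLF proteins are zinc finger factors, and the NR4A proteins are nuclear receptors that need no ligand. Others close the response. The DUSP phosphatases inactivate the kinases ERK, JNK and p38, and ZFP36 (tristetraprolin) brings mRNAs with AU-rich ends to decay. Most are also known to respond to injury, stress and the dissociation of tissue.

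Stretches of 60 bases upstream of the start sites of 5 members are shown because they carry the letters that these factors are known to bind, in members whose levels differed in how far they moved. They are RefSeq sequences on build GRCm38.p6, written 5′ to 3′ on the strand of the gene, with the CArG box (Zfp36 and Dusp5), TGACGTCA (Btg2 and Dusp1) or TGACGT (Fos) in capitals. The windows are chr7:28379252-28379311 on the minus strand for Zfp36, chr19:53529038-53529097 on the plus strand for Dusp5, chr1:134079288-134079347 on the minus strand for Btg2, chr17:26508582-26508641 on the minus strand for Dusp1 and chr12:85473797-85473856 on the plus strand for Fos.
Zfp36: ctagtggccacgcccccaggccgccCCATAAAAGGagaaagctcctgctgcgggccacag
Dusp5: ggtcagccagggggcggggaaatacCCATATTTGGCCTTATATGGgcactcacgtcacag
Btg2: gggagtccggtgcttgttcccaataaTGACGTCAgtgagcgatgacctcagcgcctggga
Dusp1: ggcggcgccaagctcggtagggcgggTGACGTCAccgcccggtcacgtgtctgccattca
Fos: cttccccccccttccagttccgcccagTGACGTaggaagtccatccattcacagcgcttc
The capitals in Dusp5 mark a pair of CArG boxes side by side.

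Of the 38 members, 29 had a promoter window in the RefSeq table, and the 250 bases before each start site were searched on both strands. The other 9, among them Ier2 and Klf10, were not searched. A CArG box was found in 3 members (Egr2, Dusp5 and Zfp36), against 1.47% of the 32851 windows of all genes. TGACGTCA was found in 3 (Btg2, Dusp1 and Maff) against 1.55%, and the shorter TGACGT, which lies within it, in 12 against 6.47%. TGANTCA, which takes any base at N and so is looser than the AP-1 site, was found in 1 (Csrnp1) against 6.75%. A member was counted when any of its windows matched, whereas each percentage is a share of single windows. The counts and the percentages are therefore unlike measures, and genes with several start sites had more chances to match. These are matches of letters in a short window and not measured binding.

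Per kilobase of exon, Fos was the most abundant member, with a mean of 701 CPM per kilobase over the 21 libraries. Junb, Cyr61 (a secreted matrix protein), Ier2 (a nuclear factor) and Egr1 followed at 172, 169, 162 and 118 CPM per kilobase. In CPM, Fos alone made up 31.2% of the summed member level, and its mean of 1649 CPM was above that of 99.7% of the tested genes. Its lowest library, truncated SK3 apex 3, had 755.5 CPM and its highest, DN-mHCN2 apex 4, had 2342 CPM. Transcripts of Fos were thus abundant in every library, controls included.
The members classed here as neuronal effectors, Arc and Npas4, were far lower on this scale. Other members linked to neuronal activity differed widely, with Egr1 at 118 and Egr3 at 1.84 CPM per kilobase. Arc, a synaptic protein of activated neurons, averaged 8.94 CPM per kilobase and Npas4, a factor switched on by depolarization, 0.286 CPM per kilobase. Neighbours in this order often overlapped: the libraries of Junb ran from 77.3 to 444 CPM per kilobase and those of Cyr61 from 72.5 to 296, so their order is not resolved.

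**Figure D1:**
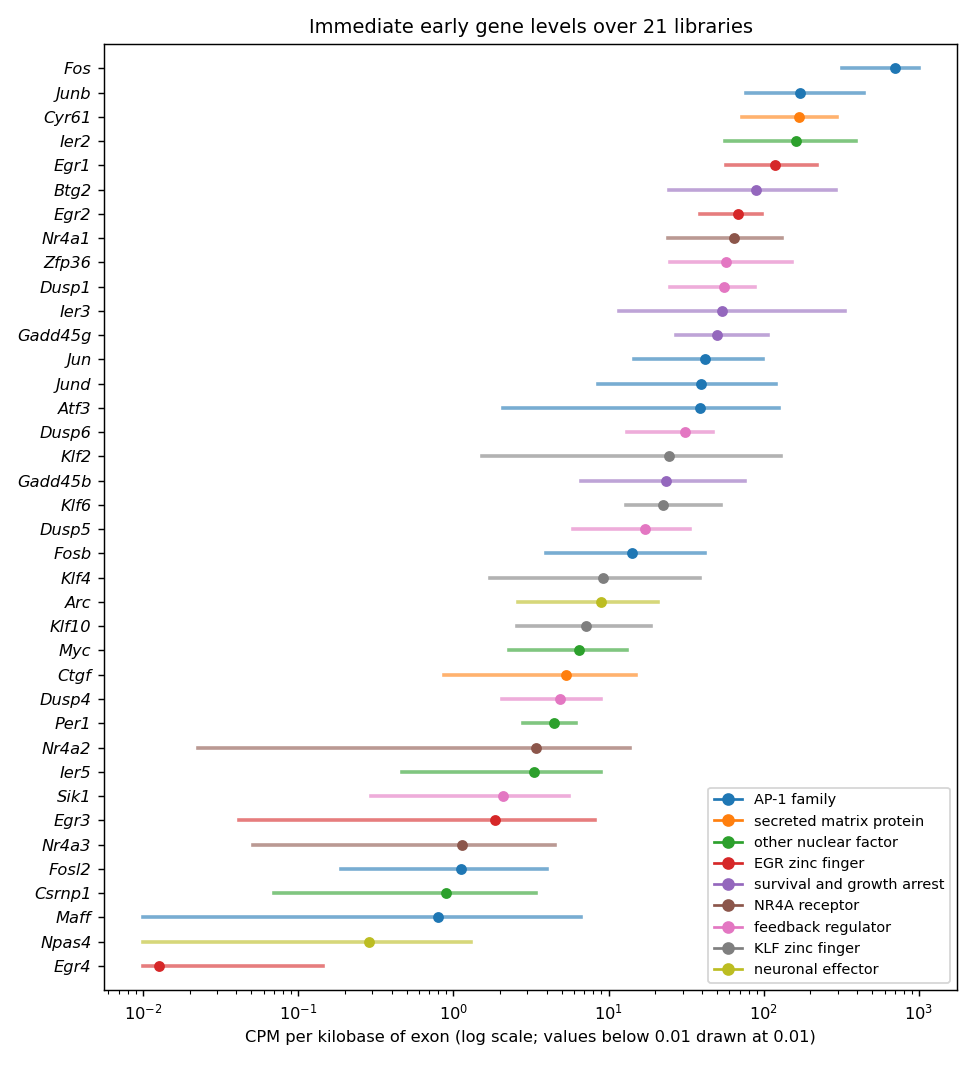
Level of each member in CPM per kilobase of exon on a log axis; points are means over 21 libraries, lines run from the lowest to the highest library, and colours mark roles. Fos stands first at 701 CPM per kilobase, Npas4 is at 0.286, and values below 0.01 are drawn at 0.01.

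The libraries of a group were more spread in the members than in the median gene, a description that takes no account of level. The members' median coefficient of variation was 33.9% in control apex and 36% in control base, against 20.8% and 24.3% for all tested genes. In the construct groups it lay between 47.2% and 54.7%, against 30.5% to 37.7%. Single libraries were high or low for many members at once. DN-mHCN2 base 1 was the highest of its group for 23 of the 37 tested members and lay above every control library for 26, or 70.3%, against 37% and 24% of all tested genes in that library. DN-mHCN2 apex 4 was the highest of its group for 21 members (20.1% of all tested genes), and DN-mHCN2 apex 3 the lowest for 21 (30.2%). Truncated SK3 base 3 was the highest for 29 (34.1% of all tested genes) and truncated SK3 base 2 the lowest for 24 (29%). Among controls, control base 3 was the highest of its group for 25 members (30.5%). The summed member level was 3108 to 5565 CPM in the 8 control libraries, 3074 to 9072 CPM in the 7 DN-mHCN2 libraries and 4235 to 6800 CPM in the 6 truncated SK3 libraries, so both constructs overlapped the controls.

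**Figure D2:**
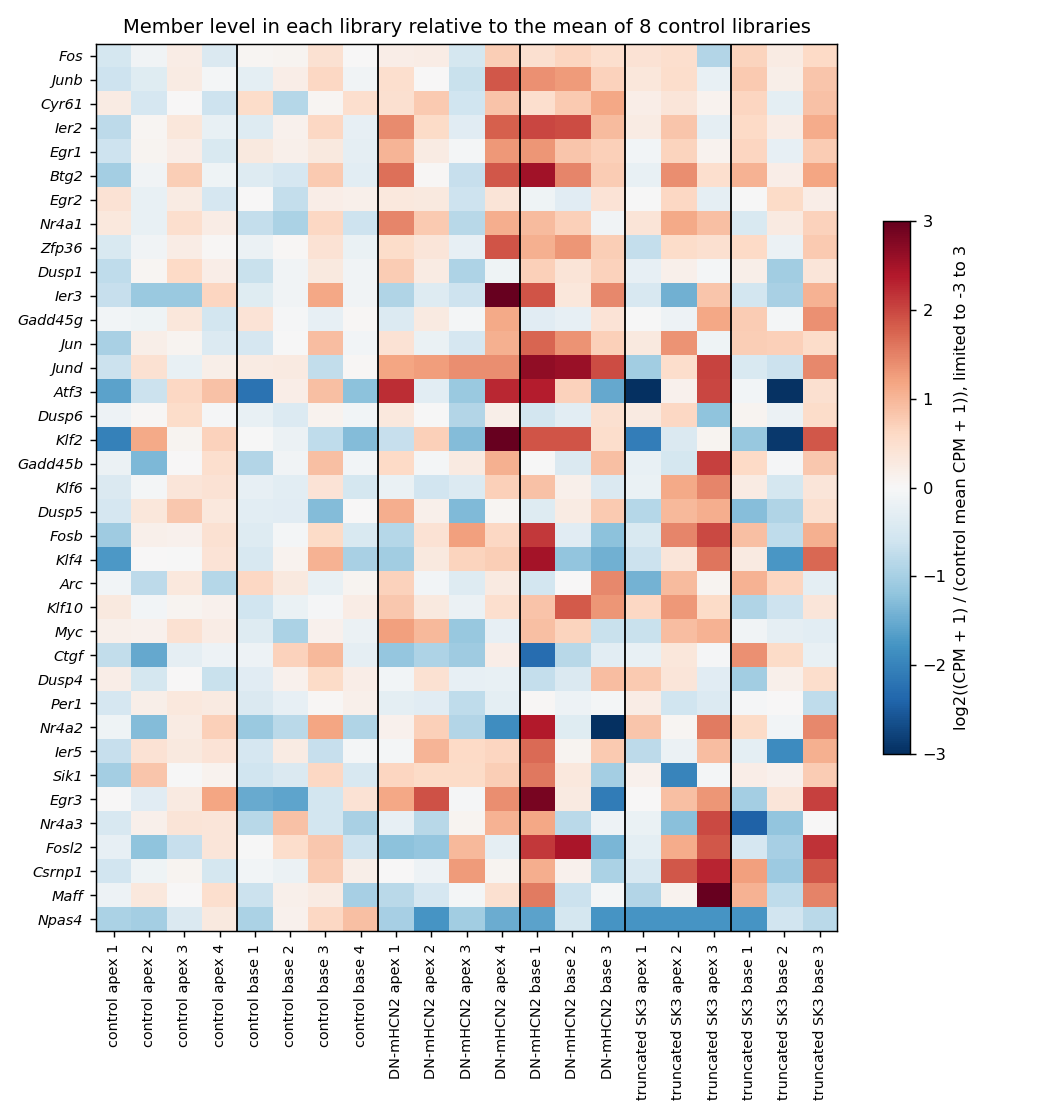
Level of 37 members (rows, ordered by level per kilobase) in each of 21 libraries (columns), as log2 of CPM + 1 over the mean of 8 control libraries + 1. Red columns such as DN-mHCN2 base 1, above every control library for 26 members, stand beside paler ones of the same group, and Npas4 is blue in most construct libraries.

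The first comparison asked how these genes differed with DN-mHCN2. Over both regions 5 members were higher: Jund, Ier2, Klf10, Egr1 and Zfp36. They include an AP-1 subunit, a nuclear factor, a pair of zinc finger factors and a regulator of mRNA decay, and the fitted changes lay between 0.86 and 1.91 on the log2 scale. No member was called lower, against 540 genes, 3.61%. Of 37 members, 5 were called higher by edgeR's quasi-likelihood test at a false discovery rate of 0.05, against 366 of all 14968 tested genes, or 2.45%, and 33 had a positive fold change, against 52.5% of all tested genes. The median log2 fold change of the members was 0.67, and that of all tested genes was 0.03. Without DN-mHCN2 base 1 the members' median was 0.44, with 28 of 37 positive.

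Jund encodes the AP-1 subunit that resting cells already contain (chromosome 8, 70698949 to 70700616, plus strand, GRCm38; a gene of 1668 exonic bases). It was at 19.2, 42.3, 26.0 and 34.6 CPM in control apex and at 36.4, 37.4, 18.1 and 31.4 CPM in control base. The 4 DN-mHCN2 apex libraries had 71.5, 74.8, 82.8 and 82.1 CPM, and the 3 DN-mHCN2 base libraries 198.7, 188.4 and 122.1 CPM. All 7 DN-mHCN2 libraries lay above all 8 controls, and every base library lay above every apex library of this group. Jund was the sole member whose DN-mHCN2 and control libraries did not overlap, a separation upward that 108 tested genes, 0.722%, showed. Over both regions the fitted log2 change was 1.91 (SE 0.38, adjusted p = 0.0066 in edgeR), and leaving out any 1 of the 15 libraries kept the call. The transcript has a GC content of 67.1%, and with GC content and transcript length corrected for the change was 1.49. Reads of Jund and of Gm11175, which overlaps it on the other strand, cannot be told apart.

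Ier2 (chromosome 8, 84661331 to 84662852, minus strand), which encodes a nuclear protein of growth factor responses, was at 85.4, 155, 189 and 126 CPM in control apex and 113, 163, 228 and 125 CPM in control base. In DN-mHCN2 apex it was at 399, 221, 117 and 511 CPM, and in DN-mHCN2 base at 600.3, 579 and 287 CPM. Replicates 2 and 3 of the apex group lay within the control range, and the other 5 libraries lay above it. The log2 fold change was 1.40 (SE 0.29, adjusted p = 0.00737 in edgeR).
Egr1, the EGR factor widely used as a marker of neuronal activity, was at 256, 414, 456 and 289 CPM in control apex and 487, 439.5, 487 and 326 CPM in control base. It was at 799.8, 465, 379 and 968 CPM in DN-mHCN2 apex and 981, 698 and 645 CPM in DN-mHCN2 base. As for Ier2, replicates 2 and 3 of the apex were within the control range and 5 libraries were above it. Its log2 fold change was 0.86 (SE 0.21, adjusted p = 0.0195 in edgeR).

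Klf10 (chromosome 15, 38291463 to 38300706, minus strand) encodes a zinc finger repressor induced by TGF-beta. It was at 26.1, 20.1, 22.6 and 23.1 CPM in control apex and 13.6, 18.4, 20.6 and 25.0 CPM in control base. The DN-mHCN2 apex libraries had 37.7, 26.1, 18.6 and 30.2 CPM and the DN-mHCN2 base libraries 39.2, 78.8 and 54.8 CPM. Of the 7 libraries, 5 lay above every control, and the apex libraries overlapped the controls. Over the 2 regions Klf10 rose by 0.93 on the log2 scale (SE 0.22, adjusted p = 0.0185 in edgeR), and it was not called without DN-mHCN2 base 2 (adjusted p = 0.0592 in edgeR).
Zfp36 (chromosome 7, 28376784 to 28380253, minus strand), whose promoter stretch is shown above, was at 102, 132, 167 and 145 CPM in control apex and 125.5, 145, 193 and 124 CPM in control base. It was at 207, 182, 120.0 and 526 CPM in DN-mHCN2 apex and 296, 354 and 237 CPM in DN-mHCN2 base, with 5 of 7 libraries above every control. Its log2 fold change was 0.97 (SE 0.26, adjusted p = 0.0364 in edgeR), and it was called in 6 of 15 fits that left out 1 library. It was also not called with GC content and length corrected for (0.87, adjusted p = 0.0578 in edgeR).

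**Figure D3:**
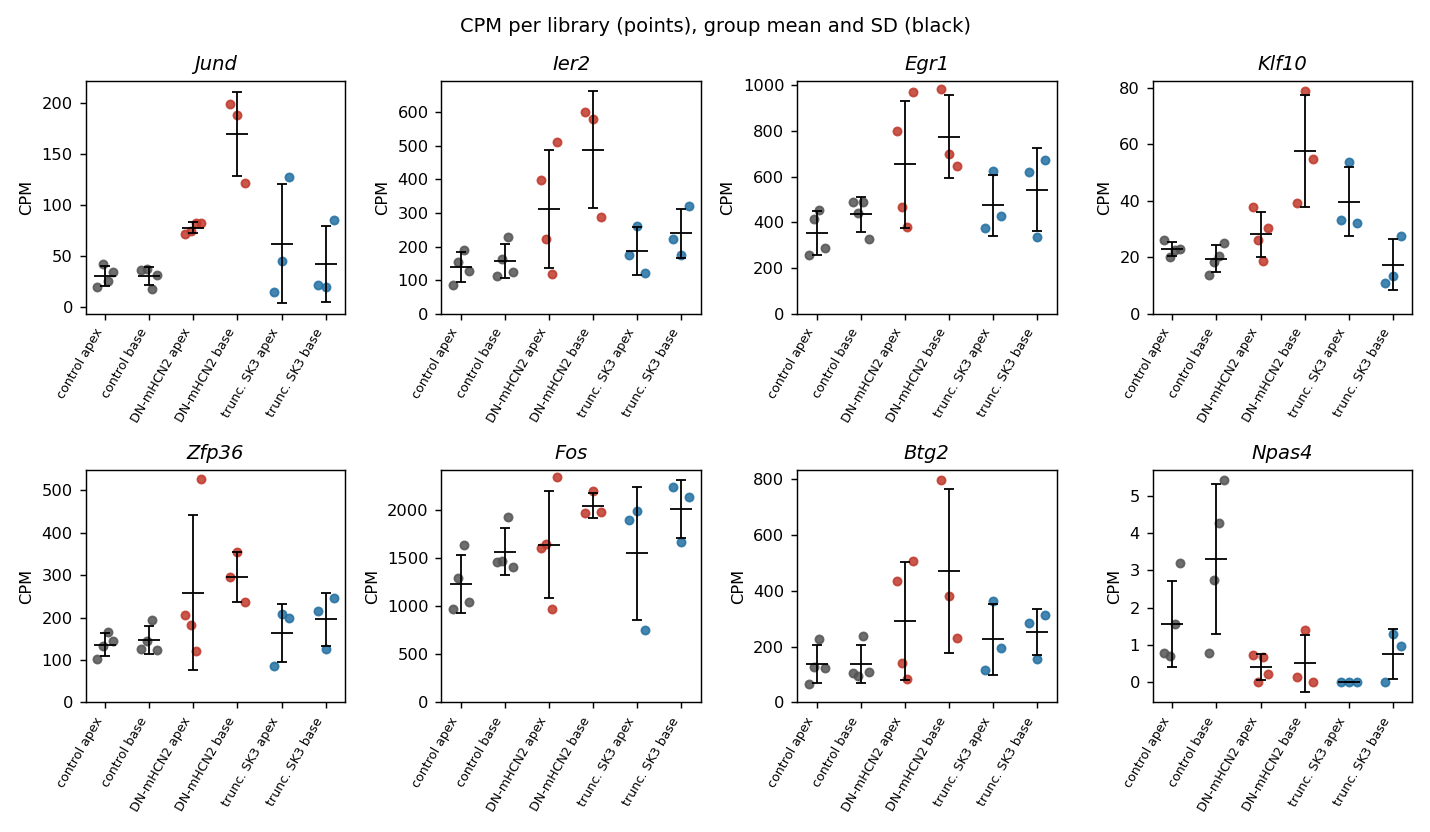
CPM of 8 members in each library (points) with the group mean and SD (black), by group; axes are linear and differ between panels. The 7 Jund points of DN-mHCN2 lie above all 8 control points, Ier2, Egr1, Klf10 and Zfp36 overlap the controls in the apex, and Npas4 is at 0 in all 3 truncated SK3 apex libraries.

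The remaining AP-1 members all had positive fold changes and did not pass the test. Junb, a partner of FOS, averaged 250.2 ± 65.5 (SD, n = 4) and 312 ± 90.5 CPM (n = 4) in the apex and base of controls, against 471 ± 379 (n = 4) and 621 ± 146 (n = 3) under DN-mHCN2, a log2 change of 0.95 (SE 0.28, adjusted p = 0.0525 in edgeR). Its exons overlap those of Prdx2, which averaged 951 CPM, on the other strand. Jun averaged 80.0 ± 27.0 and 106 ± 49.7 CPM in the apex and base of controls, against 117 ± 58.2 and 235 ± 80.4 (adjusted p = 0.0722 in edgeR). Fos, whose protein is the partner of all JUN proteins, averaged 1236 ± 301 and 1567 ± 244.5 CPM in control and 1643 ± 560.0 and 2047 ± 129.5 under DN-mHCN2. Its log2 change of 0.40 (SE 0.19, adjusted p = 0.227 in edgeR) was the smallest of the 8 AP-1 members, the most abundant of them thus having the smallest fitted change. Fosl2 went from 4.80 ± 2.69 and 7.80 ± 3.56 CPM to 5.67 ± 5.25 and 23.9 ± 19.6 CPM, where replicates 1 and 2 of the base, at 30.9 and 39.1 CPM, stood above replicate 3 at 1.83 CPM. Fosb, Atf3 and Maff had log2 changes of 0.72, 1.35 and 0.43.

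Among the EGR genes, Egr3, an activity-dependent factor, averaged 5.72 ± 3.34 and 2.48 ± 2.43 CPM in the apex and base of controls and 11.3 ± 5.91 and 13.7 ± 19.3 CPM under DN-mHCN2 (log2 change 1.72, SE 0.71, adjusted p = 0.157 in edgeR). Its 3 base libraries had 35.8, 5.19 and 0.183 CPM, so that the group mean rested on DN-mHCN2 base 1. Egr2, which drives myelination in Schwann cells and is also a marker of them, was at 221 ± 63.3 and 210.2 ± 54.1 CPM in control and 239 ± 66.7 and 218 ± 61.9 under DN-mHCN2, with a log2 change of 0.08.
Among the NR4A receptors, Nr4a1 averaged 194 ± 38.8 and 137 ± 79.2 CPM in the apex and base of controls against 299 ± 155 and 248 ± 86.1 (adjusted p = 0.152 in edgeR). Nr4a3 was at 6.79 ± 1.94 and 5.34 ± 4.47 CPM against 6.97 ± 4.54 and 7.75 ± 6.26, a difference within the spread of each group. Klf2 and Klf4, zinc finger factors also found in vessels and epithelia, had log2 changes of 1.61 (SE 0.75) and 0.75 (SE 0.64), and Klf6, a zinc finger factor of growing neurons, averaged 91.3 ± 23.9 and 77.1 ± 23.7 CPM in control against 83.4 ± 38.3 and 103.6 ± 47.2.

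Btg2, an antiproliferative protein that recruits the machinery removing poly(A) tails, averaged 137 ± 67.0 and 137 ± 67.8 CPM in the apex and base of controls and 291 ± 210.0 and 469.5 ± 293 under DN-mHCN2. Its libraries ran from 84.1 to 796 CPM under DN-mHCN2, with 4 of 7 above every control, and the log2 change of 1.43 (SE 0.41, adjusted p = 0.0506 in edgeR) missed the threshold. Ier3, a survival factor, reached 379 CPM in DN-mHCN2 apex 4 while the other 3 apex libraries had 19.5 to 28.6 CPM. Gadd45g, which binds stress kinases, was at 45.6 ± 11.8 and 50.1 ± 10.1 CPM in control and 61.7 ± 31.7 and 47.3 ± 14.7 under DN-mHCN2. Of the feedback regulators other than Zfp36, the phosphatases Dusp1, Dusp4, Dusp5 and Dusp6 had log2 changes of 0.37, 0.07, 0.31 and -0.05. Dusp5 averaged 47.8 ± 16.9 and 28.6 ± 9.93 CPM in the apex and base of controls and 45.1 ± 28.2 and 46.8 ± 18.6 under DN-mHCN2.
Zfp36, Dusp5 and Egr2, the members found with a CArG box, had changes of 0.97, 0.31 and 0.08. Btg2, Dusp1 and Maff, those found with TGACGTCA, had 1.43, 0.37 and 0.43. Whether the changes go with these motifs was not tested.

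The secreted matrix proteins, both classed as CCN proteins and known as targets of the YAP and serum response pathways, had opposite signs. Cyr61 averaged 237 ± 68.2 and 299 ± 114 CPM in the apex and base of controls against 375 ± 140.2 and 481 ± 109 under DN-mHCN2 (log2 change 0.67, SE 0.24, adjusted p = 0.0928 in edgeR). Ctgf averaged 10.3 ± 4.28 and 21.4 ± 9.36 CPM against 10.0 ± 5.70 and 7.85 ± 5.11, with a log2 change of -0.75 (SE 0.37, adjusted p = 0.24 in edgeR). Per1, a clock gene with cyclic AMP responsive transcription, was at 29.6 ± 7.02 and 25.6 ± 4.74 CPM in control and 20.5 ± 3.07 and 26.4 ± 1.95 CPM under DN-mHCN2, a log2 change of -0.24. Csrnp1, a nuclear protein induced by AXIN1, was at 1.19 ± 0.47 and 2.06 ± 0.97 CPM against 2.54 ± 1.91 and 2.28 ± 2.16 CPM. By role, 8 of 8 AP-1 members, 3 of 3 tested EGR genes, 3 of 3 NR4A receptors and 4 of 4 KLF genes had positive fold changes over both regions, as did 5 of 6 feedback regulators. With GC content and transcript length corrected for, Dusp4 and Gadd45g changed sign and 31 of 37 members were positive.

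The members with negative fold changes were Npas4, Ctgf, Per1 and Dusp6, none of them called. Npas4 (chromosome 19, 4984355 to 4990316, minus strand) was at 0.774, 0.694, 1.56 and 3.20 CPM in control apex and 0.784, 2.76, 4.27 and 5.42 CPM in control base. In DN-mHCN2 apex it was at 0.718, 0, 0.663 and 0.224 CPM and in DN-mHCN2 base at 0.134, 1.39 and 0 CPM, so that 5 of 7 libraries lay below the lowest control. The log2 fold change was -2.31 (SE 1.10, adjusted p = 0.224 in edgeR).

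Markers of other cell types also differed between DN-mHCN2 and control libraries. Over both regions edgeR called 4 of 20 Schwann and satellite glial markers lower, 2 of 16 supporting cell markers higher, 1 of 13 tested fibroblast markers higher and 0 of 16 macrophage markers (1 with an unadjusted p under 0.05, 1 called by DESeq2, 0 by limma-voom). Of all tested genes 2.45% were called higher and 3.61% lower. Egr2 was left out of the Schwann list, and no marker of these lists was at 0 in every library. Of 20 neuronal markers 1 was called lower, as was 1 of 6 erythrocyte markers, although the erythrocyte sum was 6 to 1092 CPM in control and 18 to 2495 CPM in DN-mHCN2 libraries. Oligodendrocyte markers summed to 9 to 20 CPM in control apex and 41 to 1946 CPM in control base, against 14 to 124 CPM under DN-mHCN2, and edgeR called 0 of 9 (5 with an unadjusted p under 0.05, 6 called by DESeq2, 0 by limma-voom). Summed supporting cell markers ran from 321 to 1809 CPM in control and from 480 to 8544 CPM in DN-mHCN2 libraries, and fibroblast markers from 288 to 3691 and from 427 to 4850 CPM. DN-mHCN2 base 1, the library with most members above every control, had the highest fibroblast sum and the lowest neuronal sum. Without DN-mHCN2 apex 1 and DN-mHCN2 base 1, highest in these markers, Ier2, Jund and Klf10 were called, against 5.29% of all tested genes in either direction, the median member change was 0.42 in place of 0.67, and Egr1 had an edgeR adjusted p of 0.0808. Without DN-mHCN2 base 2 and DN-mHCN2 base 3, rich in macrophage markers, 4 members were called, Egr1, Egr3, Ier2 and Jund, against 2.95% of all tested genes, and the median member change was 0.98. The part of other cell types in the levels of the members was not tested.

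**Figure D4:**
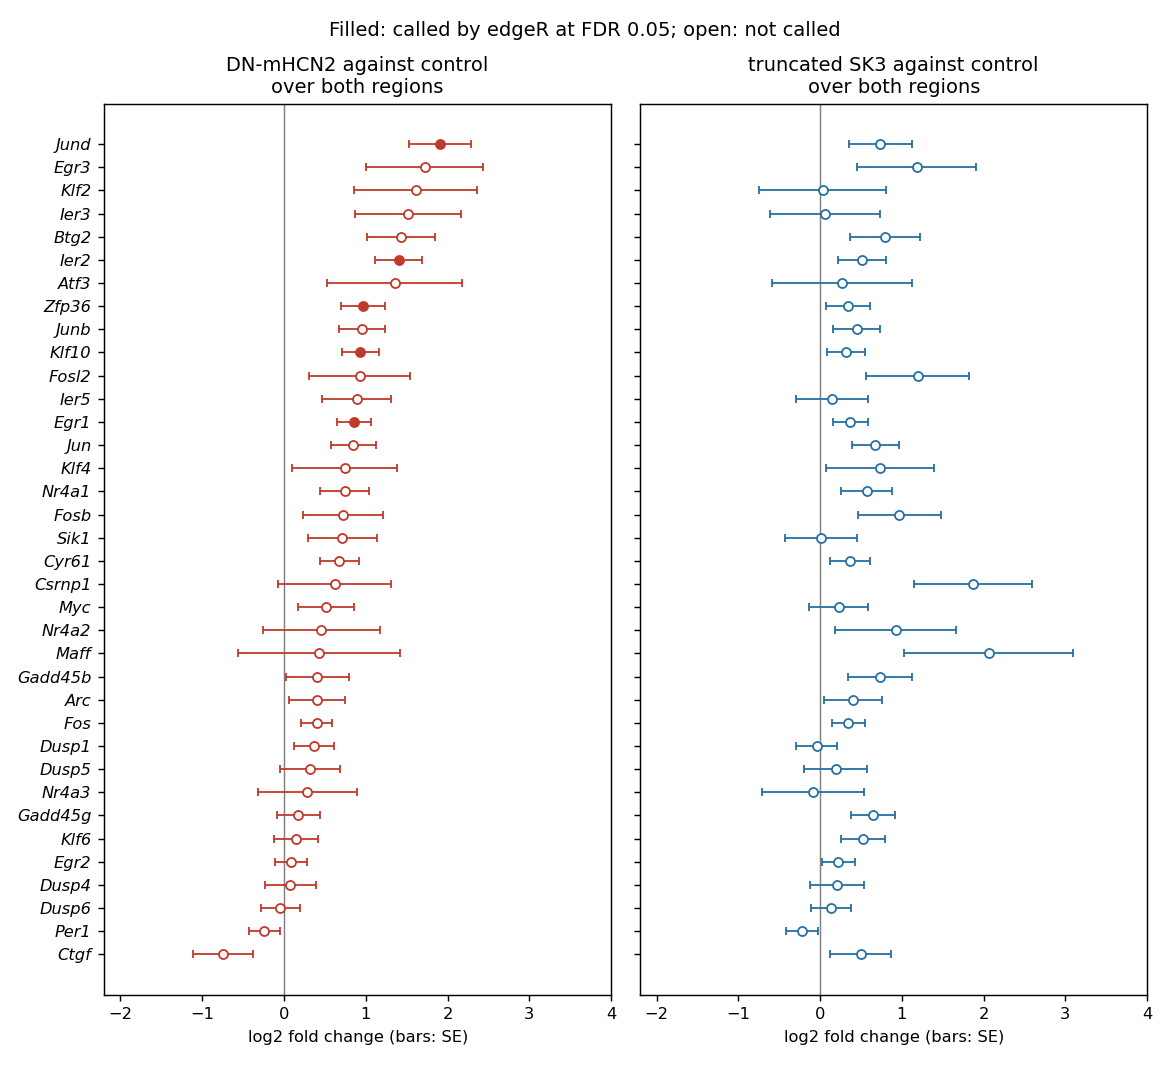
Log2 fold change of 36 members over both regions with SE, for DN-mHCN2 (left) and truncated SK3 (right) against control, ordered by the left panel; Npas4 is left out because 1 group is at 0. Filled points are the 5 members called at a false discovery rate of 0.05, from Jund at 1.91 to Egr1 at 0.86, and no point on the right is filled.

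Taken by region, DN-mHCN2 gave 0 called members in the apex by edgeR, where 30 genes in all, 0.2%, were called, 10 of them, 0.0668%, higher and 20, 0.134%, lower. There, 6 members had an unadjusted p under 0.05. DESeq2 called 0 members and limma-voom 1 (Jund), beside 1.81% and 1.47% of all tested genes. The median member change in the apex was 0.47 (0.27 without DN-mHCN2 apex 4). In the base, 3 of 37 members were called higher, against 126 of all tested genes, 0.842%, and none lower, against 194, 1.3% (320 in either direction, 2.14%). The median member change was 0.86, and 0.41 without DN-mHCN2 base 1, with 27 of 37 positive. They were Klf10 (log2 change 1.57, SE 0.33, adjusted p = 0.0164 in edgeR), Jund (2.46, SE 0.55, adjusted p = 0.0272 in edgeR) and Ier2 (1.64, SE 0.42, adjusted p = 0.0477 in edgeR). Of 7 fits that left out 1 library, Klf10 was called in 5 and Jund and Ier2 in 2 each, and leaving out control base 1 or DN-mHCN2 base 2 ended all 3 calls. So did leaving out both libraries rich in macrophage markers, which left 1 library in the group, taken to vary like the other groups, and log2 changes of 1.04, 2.72 and 1.96 for Klf10, Jund and Ier2; 3 of 16 macrophage markers were called higher in the base.

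Whether the DN-mHCN2 effect differed between regions was tested directly. The 27 members with a positive change in both regions included all 5 called over both, and 26 of 37 had the larger fitted change in the base, against 50.4% of all tested genes, with a median difference of 0.41 (0.01 for all tested genes). The size of this difference rested on DN-mHCN2 base 1, without which the median difference of the members was 0.02 and 22 of 37 were larger in the base. No member was called for the difference, where 1 gene in all, 0.00668%, was called by edgeR, 1 member had an unadjusted p under 0.05, and DESeq2 and limma-voom called 0 members each. The member with the smallest p was Klf10, whose change in the base exceeded that in the apex by 1.27 (SE 0.45, adjusted p = 0.568 in edgeR). Jund was at 1.35 in the apex and 2.46 in the base, a difference of 1.11 (SE 0.74, adjusted p = 0.816 in edgeR).

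**Figure D5:**
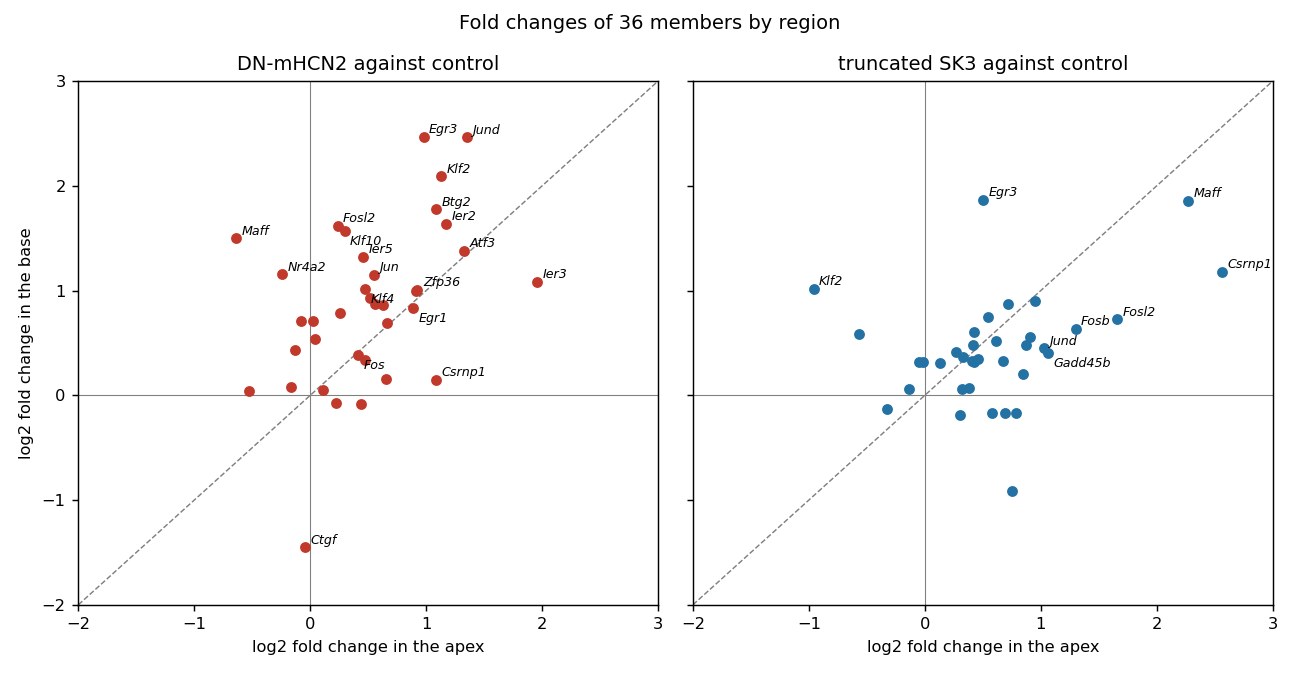
Log2 fold change against control in the base plotted against that in the apex for 36 members (Egr4 and Npas4 left out), with DN-mHCN2 on the left and truncated SK3 on the right; the dashed line marks equal change. Jund lies at 1.35 in the apex and 2.46 in the base under DN-mHCN2.

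The second comparison asked how the members differed with truncated SK3. None was called over both regions by edgeR, against 49 genes, 0.327%, called higher and 61, 0.408%, called lower. The members still had mostly positive fold changes, 33 of 37 against 51% of all tested genes, with a median of 0.37 against 0.01 (0.25 without truncated SK3 base 3). With GC content and transcript length corrected for, Ier3 and Klf2 changed sign. The 4 with an unadjusted p under 0.05 were Npas4, Csrnp1, Gadd45g and Jun. DESeq2 and limma-voom each called 1 member, Npas4, as lower, beside 2.2% and 2.05% of all tested genes called in either direction. This comparison uses the same 8 control libraries as that for DN-mHCN2.

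Npas4 was listed at 0 in all 3 truncated SK3 apex libraries and at 0, 1.29 and 0.967 CPM in truncated SK3 base. The 4 control apex libraries together held 88 counts, or 1.60 CPM, so Npas4 was at least 19.8-fold lower in truncated SK3 apex, taking 3 counts over the group (0.0807 CPM) as the floor, which covers counting error only. Of those 88 counts 46 came from control apex 4, and without it the bound was 12.8-fold. Over both regions 4 of 6 libraries lay below the lowest control and the other 2 within the control range. The edgeR adjusted p was 0.147 over both regions and 0.284 in the apex. Its libraries ran from 0 to 1.39 CPM under DN-mHCN2 and 0 to 1.29 CPM under truncated SK3, against 0.694 to 5.42 CPM in control. Arc, the other gene of this class, had the opposite sign, with log2 changes of 0.40 (SE 0.35) under DN-mHCN2 and 0.40 (SE 0.36) under truncated SK3.

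Jun averaged 146 ± 81.1 and 148 ± 10.4 CPM in truncated SK3 apex and base (log2 change 0.68, SE 0.29, adjusted p = 0.408 in edgeR), and Gadd45g 66.5 ± 36.9 and 84.3 ± 39.8 CPM (0.65, SE 0.27, adjusted p = 0.392 in edgeR). Csrnp1 was at 7.07 ± 5.60 and 4.68 ± 4.21 CPM (1.87, SE 0.72, adjusted p = 0.331 in edgeR). Its libraries had 0.880, 8.54 and 11.8 CPM in the apex and 5.2, 0.242 and 8.61 CPM in the base, 4 of 6 above every control. The library of each group with the lowest Csrnp1 level was also the one with the lowest level for most members. These were truncated SK3 apex 1 (21 of 37, against 31.3% of all tested genes) and truncated SK3 base 2 (24 of 37, against 29%).
The genes called under DN-mHCN2 were not called here. Jund averaged 62.1 ± 58.4 and 42.1 ± 37.2 CPM, with libraries at 14.3, 45.0 and 127.1 CPM in the apex and 21.9, 19.4 and 85.1 CPM in the base. Ier2 averaged 186 ± 70.8 and 239 ± 74.0 CPM, Egr1 474 ± 132 and 542 ± 182 CPM, and Zfp36 164 ± 67.5 and 196 ± 62.0 CPM. Klf10 averaged 39.7 ± 12.2 CPM in the apex and 17.3 ± 9.0 CPM in the base. Of its 6 libraries, 4 lay above every control and 2 below every control.

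Fos averaged 1551 ± 690.4 CPM in truncated SK3 apex and 2015 ± 304.5 CPM in the base, with 755.5 CPM in apex replicate 3 against 1903 and 1994 CPM in the others. That library was the lowest of its group for 9 members, among them Fos and Dusp6 (37.5% of all tested genes). It was the highest for 18, among them Jund, Atf3 and Maff (33.5% of all tested genes). Junb averaged 333 ± 84.6 and 435 ± 100.4 CPM, Fosl2 15.2 ± 10.4 and 12.9 ± 16.5 CPM and Btg2 225 ± 126 and 251.5 ± 83.1 CPM. Egr2 averaged 242 ± 81.0 and 261 ± 55.4 CPM, Egr3 8.10 ± 3.79 and 9.07 ± 9.78 CPM, Nr4a1 297 ± 75.4 and 196 ± 74.4 CPM and Nr4a3 11.4 ± 13.7 and 2.83 ± 2.96 CPM. All of these overlapped the control libraries. Klf6 averaged 164 ± 82.3 and 88.9 ± 26.8 CPM, Dusp5 59.7 ± 33.9 and 29.8 ± 21.2 CPM, Cyr61 314.5 ± 30.6 and 375 ± 142 CPM, Ctgf 16.4 ± 3.55 and 26.8 ± 14.9 CPM and Per1 23.7 ± 7.76 and 23.4 ± 6.64 CPM.

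By region, edgeR called 0 members under truncated SK3 in the apex (38 genes in all, 0.254%, with 15, 0.1%, higher and 23, 0.154%, lower; 5 members with an unadjusted p under 0.05; DESeq2 called 1, Npas4, and limma-voom 0). In the base it also called 0 members (22 genes, 0.147%, in either direction, with 11, 0.0735%, each way; 0 with an unadjusted p under 0.05; DESeq2 and limma-voom 0). For the difference between the regions edgeR called 0 members and 0 genes in all, 0%, with 1 member, Npas4, at an unadjusted p under 0.05 and 0 called by DESeq2 or limma-voom.

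In control neurons no member passed the test between base and apex. EdgeR called 0 members and 0 of 14968 genes, 0%, 1 member had an unadjusted p under 0.05, and DESeq2 and limma-voom called 0 members each. The median log2 difference of base against apex was 0.00. The member in question was Ctgf, at 10.3 ± 4.28 CPM in the apex and 21.4 ± 9.36 in the base (log2 difference 1.05, SE 0.50, adjusted p = 1 in edgeR). In DN-mHCN2 and in truncated SK3 libraries edgeR called 0 members between base and apex, against 32 genes, 0.214% (17, 0.114%, higher and 15, 0.1%, lower), and 2 genes, 0.0134%; 3 members in each had an unadjusted p under 0.05, and DESeq2 and limma-voom called 0 in each. Klf10 had the smallest p among members in both, and its signs were opposite. The log2 difference was 1.03 under DN-mHCN2 (SE 0.33, adjusted p = 0.191 in edgeR) and -1.20 under truncated SK3 (SE 0.36, adjusted p = 0.304 in edgeR).

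The constructs were also compared with each other, without the controls. EdgeR called 0 members, against 98 genes, 0.655%, in either direction; 6 members had an unadjusted p under 0.05, DESeq2 called 1 (Ctgf) and limma-voom 1 (Jund). For Ctgf the log2 difference of DN-mHCN2 against truncated SK3 was -1.24 (SE 0.39, adjusted p = 0.131 in edgeR). For Ier2 it was 0.89 (SE 0.31, adjusted p = 0.181 in edgeR) and for Jund 1.17 (SE 0.41, adjusted p = 0.182 in edgeR). The calls made for DN-mHCN2 and not for truncated SK3 were therefore not shown to differ between the constructs by edgeR.

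The pathway that feeds these genes was described from lists of related genes. Among 21 kinases of the ERK, JNK and p38 cascades, 1 rose and 4 fell with DN-mHCN2 over both regions, against 6.05% of all tested genes called in either direction. Map3k1, an upstream kinase of JNK and ERK, fell by 1.86 on the log2 scale (SE 0.14, adjusted p = 6.46e-08 in edgeR). Rps6ka2 and Rps6ka1, ribosomal S6 kinases that lie downstream of ERK, changed in opposite directions, by -1.20 (SE 0.22, adjusted p = 0.00269 in edgeR) and 1.02 (SE 0.21, adjusted p = 0.008 in edgeR). The calls of Map3k1, Rps6ka2 and Rps6ka1 stood under every alternative that was run. The other kinase genes that fell were Braf (-0.92, SE 0.17, adjusted p = 0.00276 in edgeR) and Mapk9 (-0.46, SE 0.12, adjusted p = 0.0295 in edgeR). Neither was called with GC content and transcript length corrected for. Braf was called in all 15 fits without 1 library and Mapk9 in 10. Mapk9 was also not called without DN-mHCN2 apex 1 and DN-mHCN2 base 1. Of 19 tested CREB, CRTC and MEF2 factors, 3 fell: Creb1 (-1.06, SE 0.24, adjusted p = 0.0121 in edgeR), Mef2a (-0.55, SE 0.14, adjusted p = 0.0292 in edgeR) and Atf4 (-0.47, SE 0.13, adjusted p = 0.0397 in edgeR). Creb1 was called in all 15 fits without 1 library, Mef2a in 8 and Atf4 in 5. With GC content and transcript length corrected for, Creb1 and Mef2a were not called. Atf4 was not called by limma-voom, with the replicate block, or without DN-mHCN2 apex 1 and DN-mHCN2 base 1. The fit without the macrophage-rich DN-mHCN2 base 2 and 3 left 1 library in the base group, so only its changes are given: -0.83, -0.40 and -0.51 for Creb1, Mef2a and Atf4. Of 6 tested serum response factor genes and partners, edgeR called 0, with 1 at an unadjusted p under 0.05 and 0 called by DESeq2 or limma-voom. Of 16 calcium-dependent kinases and calmodulins it called 0, with 3 at an unadjusted p under 0.05 and 1 called by each of the other tools.

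Among 16 tested feedback inhibitors of ERK signalling other than the members, 2 phosphatase genes fell, Dusp16 (-1.03, SE 0.22, adjusted p = 0.00935 in edgeR) and Dusp3 (-0.51, SE 0.13, adjusted p = 0.0212 in edgeR). Without DN-mHCN2 base 2 and 3, which left 1 library in the base group, the changes were -0.74 and -0.52. Dusp3 was not called with GC content and transcript length corrected for, or without DN-mHCN2 apex 1 and DN-mHCN2 base 1. Other primary response genes had 2 of 33 called, a share like the 6.05% of all tested genes: 1 higher, the antioxidant enzyme gene Srxn1 (0.71, SE 0.15, adjusted p = 0.0102 in edgeR; 0.33 and not called without DN-mHCN2 base 2 and 3), and 1 lower, Amigo3 (-0.83, SE 0.23, adjusted p = 0.0408 in edgeR; called in 5 of 15 fits without 1 library). Their median change was 0.18, between that of the members (0.67) and that of all tested genes (0.03). Of 20 tested late activity-regulated genes, which follow the immediate early ones, 1 rose, the kinase gene Pim1 (1.68, SE 0.45, adjusted p = 0.032 in edgeR; called in 8 of 15 such fits). Heat shock genes (15 tested, median 0.10), axon injury genes (11 tested, median 0.50) and the mRNA decay partners of Zfp36 and Btg2 (11 tested, median 0.17) had 0 called by edgeR. In these 3 lists 3, 4 and 4 genes had an unadjusted p under 0.05, DESeq2 called 2, 2 and 1, and limma-voom 1, 1 and 2.
Under truncated SK3 over both regions, against 0.735% of all tested genes in either direction, the late activity-regulated genes had Syt4 higher (0.70, SE 0.14, adjusted p = 0.0133 in edgeR) and Nptx2, a secreted synaptic protein, lower (-5.00, SE 0.60, adjusted p = 5.25e-05 in edgeR). Nptx2 was called in all 14 fits without 1 library and Syt4 in 13, all but that without truncated SK3 base 3. EdgeR called 0 genes in the other lists, where between 0 and 7 genes a list had an unadjusted p under 0.05, DESeq2 called 0, and limma-voom called 1 CREB, CRTC or MEF2 factor and 1 heat shock gene.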

How the data were processed

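RNA of 21 pools of spiral ganglion neurons was measured by RNA-seq. The authors deposited 1 table of whole-number read counts per gene symbol, not normalized. Trimmomatic, HISAT2 and DESeq2 and the builds GRCm38 and mm10 are named, without versions, per the submitters' processing notes; the counter, its annotation and use of strand are not given in the sources used here. All 21878 lines name a gene, 27 by a date in place of the symbol. Groups follow the titles. Libraries were not paired by replicate number, since the labels do not say what a shared number marks. Of 48 same-numbered pairs, taken over all groups, 6 had correlated deviations (r over 0.1), and the median r was -0.0169. These include pairs from different conditions, so they cannot show whether same-numbered apex and base libraries of a condition share an animal.

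The 14968 genes that filterByExpr kept were fitted after TMM scaling with edgeR 4.0.16 (robust quasi-likelihood, R 4.3.3), with 6 group means and all 21 libraries. The 12 contrasts had Benjamini-Hochberg adjusted p-values over all tested genes, with calls made at a false discovery rate of 0.05. An effect over both regions is the mean of the regional effects, and SE is the fold change over the root of F. Members were named by level, smallest p in each contrast, call or separation of the groups. Members and gene lists were chosen with earlier results of these data known. Positions and lengths come from GENCODE M21 on GRCm38; Cyr61 and Ctgf were matched as Ccn1 and Ccn2 through RefSeq synonyms. Alternatives used RLE factors, no filter, at least 10 CPM in 3 or more libraries, limma-voom with sample weights (limma 3.58.1), DESeq2 1.42.0, only the groups compared, a replicate block and each library left out in turn. Chosen after seeing the data were fits without libraries rich in other cell types and with a spline correction (5 degrees of freedom) for transcript length and GC content. On simulated data for DN-mHCN2 against control over both regions (14649 genes in this step), the share of changed genes recovered was 8.96% at 1.5-fold, 38.8% at 2-fold and 51.5% at 4-fold, with 2 false calls. Figures were drawn with matplotlib 3.10.9 in Python 3.11.15. Time from dissection to lysis and reads over the viral inserts were not analysed here.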

Additional observations from a re-analysis of the deposited data

Results flagged for a closer look

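For the 22 members chosen to be named, in each of the 3 groups of 4 libraries, a library was marked when its gap to the nearest other library took up more of the group's range than Dixon's critical value for 4 samples. This marked 8 of 66 tests, where chance marks about 1 in 20; the other members were not tested. In control base, replicate 3 stood apart for 3 members. Fos was at 1931 CPM there against 1405 to 1475 CPM in the other 3 libraries, Nr4a1 at 254.8 against 84.9 to 106.8 CPM, and Btg2 at 238.6 against 96.2 to 110.5 CPM. This library was the highest of its group for 25 of 37 members, against 30.5% of all tested genes. It had the highest fibroblast marker sum of its group, 3691 CPM, and the part of those cells was not tested. Without it, 9 members were called higher with DN-mHCN2 over both regions, and 4.54% of all tested genes in either direction (5 members and 6.05% with all libraries). In control base 2, Nr4a3 was at 12.01 CPM against 2.60 to 3.80 CPM.

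In DN-mHCN2 apex, replicate 3 stood apart for 3 members. Egr2 was at 140.1 CPM there against 262.9 to 284.2 CPM, Per1 at 15.92 against 21.4 to 22.4 CPM, and Csrnp1 at 5.39 against 1.36 to 1.79 CPM, so that it was low for the first pair and high for the other. It had the highest neuronal marker sum of all libraries, 30188 CPM. Without it, 10 members were called higher with DN-mHCN2 over both regions, and 9.56% of all tested genes in either direction. In DN-mHCN2 apex 4, Ctgf was at 18.52 CPM against 6.59 to 7.89 CPM.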

How the results depend on the processing

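With DN-mHCN2 over both regions, 9 members were called by DESeq2 and 9 by limma-voom against 5 by edgeR, beside 11.8%, 9.87% and 6.05% of all tested genes. Leaving out 1 library gave 3 to 10: 3 without DN-mHCN2 base 2, 9 without control base 3 and 10 without DN-mHCN2 apex 3. The shares of all tested genes in these fits were 3.93%, 4.54% and 9.56%. Leaving out DN-mHCN2 apex 1 and DN-mHCN2 base 1 gave 3, beside 5.29%. In the apex limma-voom called 1, beside 1.47%. In the base DESeq2 and a fit of only the groups compared called 5 each, beside 7.92% and 1.73% of all tested genes. Leaving out 1 library there gave 0 to 3 (1 without control base 2 or control base 4, beside 1.03% and 0.718%). With truncated SK3, 1 member was called over both regions by DESeq2 and by limma-voom, beside 2.2% and 2.05% of all tested genes. In its apex DESeq2 called 1. Klf10 made 1 call for base against apex in DN-mHCN2 without DN-mHCN2 apex 1 and DN-mHCN2 base 1. Between the constructs DESeq2 and limma-voom called 1 each, and leaving out 1 library gave 0 to 1: Ier2 without DN-mHCN2 apex 3, Jund without truncated SK3 apex 3 or truncated SK3 base 3. The difference of the truncated SK3 effect between regions for Nr4a3 was -1.66 with all libraries and -2.88 to 0.0143 with 1 left out, the last without truncated SK3 apex 3. The cause of these changes was not tested.

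The replicate block left 5 members called with DN-mHCN2 over both regions and 2 in the base. Over all genes it called 602 and 141, against 906 and 320. Whether its numbers mark shared animals is not given in the labels. Of 241 counts of members called under the alternatives, 218 stayed within 1.5 times of their value and 23 moved; 189 of the 218 belong to comparisons with 0 members called, and in those with calls 29 stayed and 13 moved. Of the values for single members, 678 kept their direction and their side of the threshold, 34 lost the call, 7 gained one and 1 reversed. Counts over all genes also moved: over both regions for DN-mHCN2 they were 1730 with DESeq2, 1478 with limma-voom, 475 without DN-mHCN2 base 2 and 3, and 520 to 1429 with 1 library left out. For DN-mHCN2 in the apex they were 272 with DESeq2, 220 with limma-voom, 55 without DN-mHCN2 base 2 and 3 and 16 to 86 with 1 library left out, against 30. In the base they were 1162 with DESeq2, 103 without DN-mHCN2 base 2 and 3, 865 without DN-mHCN2 apex 1 and DN-mHCN2 base 1 and 107 to 569 with 1 left out, against 320; limma-voom called 252 of 423 higher there, and edgeR 126 of 320. For truncated SK3 over both regions they were 337 and 307 with DESeq2 and limma-voom, 244 in a fit of only the groups compared, 69 with the block and 61 to 114 with 1 left out, against 110. In its apex they were 173, 121 and 19 to 62 (38 by edgeR), and in its base 83, 43 and 11 to 22 (22 by edgeR). For base against apex DESeq2 called 83 genes in control, 408 in DN-mHCN2 and 218 in truncated SK3 and limma-voom 42, 0 and 0, against 0, 32 and 2. Only the groups compared gave 37, 0 and 0. In DN-mHCN2 the count was also 18 with no filter, 4 with the block, 21 with the spline correction, 16 and 550 without the macrophage-rich and the other pair, and 4 to 178 with 1 left out. In truncated SK3 it was 1 with the block, 4 with the spline correction, 0 and 7 without those pairs, and 0 to 26 with 1 left out. The differences between regions had 130 (DN-mHCN2) and 23 (truncated SK3) with DESeq2 against 1 and 0, and that of DN-mHCN2 had 64 without DN-mHCN2 apex 1 and DN-mHCN2 base 1 and 0 to 34 with 1 left out. Between the constructs DESeq2 called 600, a fit of only those groups 7, that without DN-mHCN2 base 2 and 3 called 52, and 52 to 354 were called with 1 left out, against 98. At these depths a member such as Npas4, with at most 5.42 CPM, is measured by few counts. The simulation recovered 8.96% of 1.5-fold, 38.8% of 2-fold and 51.5% of 4-fold changes. It drew each gene independently, whereas single libraries here were high or low for many members at once.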
